A study of Mus musculus with 6 samples.

Results

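The cells described here are lineage-traced cells, sorted from the mouse olfactory epithelium, that were open at a set of 11 genes, among them F2, Depp1 and Adh7. Whether they are all olfactory horizontal basal cells was not tested. They were chosen by these values: a cell of 5000 or more fragments was taken when its Tn5 cut sites in the 11 gene windows, as a share of all its cut sites, reached 1.5 times the mean over all such cells, with 5 or more of these cut sites spread over 4 or more of the genes. A gene window is the gene body plus 2 kb upstream, and the mean was 224.7 CPM, the usual scaling of a count to a fixed total, here of the cut sites of a cell or of a class in a library. The rule took 545 of 3679 cells. Of the remaining cells, 445 lay in clusters open at markers of other cell types and 2689 did not. The 2689 are the comparator, called other basal cells below, although 86 and 77 of them lay in clusters 5 and 8, whose cut sites in basal cell genes were 0.61 and 0.31 times the mean. Cluster 5 was also above the mean in neuronal genes. Another 145, 270 and 88 of them lay in clusters 2, 3 and 10, which hold most of the chosen cells. By library these 3 clusters held 9.68% to 44.3% of other basal cells, most in uninjured and injured replicate 3 (44.3% and 40.9%).

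The study profiled open chromatin in single cells of the dorsal olfactory epithelium by 10x Genomics ATAC sequencing, in which a transposase cuts accessible DNA, in 3 uninjured (control) libraries and 3 libraries collected 24 h after an intraperitoneal injection of methimazole, a drug that destroys the epithelium above the basal cells. All mice carried Krt5-CreER and Rosa26-LSL-YFP alleles. Cre in Krt5-expressing cells therefore turns on YFP in basal cells and in whatever descends from them, and live YFP-positive cells were sorted. Uninjured and injured mice were 8 weeks old in replicate 1, 6 weeks in replicate 2 and 6 to 7 weeks in replicate 3, and the labels call the 3 libraries of a condition biological replicates.

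Horizontal basal cells are the reserve stem cells of the olfactory epithelium. They rest on the basal lamina, express Krt5, Krt14 and the transcription factor Trp63, and become active when the epithelium is damaged. The olfactory epithelium borders the respiratory epithelium of the nose, whose basal cells also express Krt5 and Trp63 and give rise to secretory and ciliated airway cells. Several of the genes of the rule encode secreted proteins known from mucosal surfaces: Bpifa1 is an airway defence protein, Reg3g an antibacterial lectin and Tff2 a trefoil peptide of mucus.

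Chosen cells were found in every library, and their share was highest in both libraries numbered 3. They made up 31 of 376 cells in uninjured replicate 1 (8.24%), 44 of 636 in replicate 2 (6.92%) and 189 of 552 in replicate 3 (34.2%). After injury they made up 85 of 1130 cells in replicate 1 (7.52%), 38 of 359 in replicate 2 (10.6%) and 158 of 626 in replicate 3 (25.2%). The share was 16.5% ± 15.4 (SD, n = 3) before and 14.4% ± 9.47 (SD, n = 3) after injury, a difference of -2.02 percentage points with a two-sided exact permutation p of 0.9, where 0.1 is the smallest p that 3 against 3 samples allow. Without both libraries numbered 3 the difference was 1.47 points, and it was 6.87 points without uninjured replicate 3 alone and 1.44 points without injured replicate 1, so its sign turned on single libraries. Cells near the threshold were common: 64 of the chosen cells lay within 10% above it (lowest 1.500 times the mean), and 60 cells with enough cut sites and genes lay within 10% below it (highest 1.499).

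**Figure D1:**
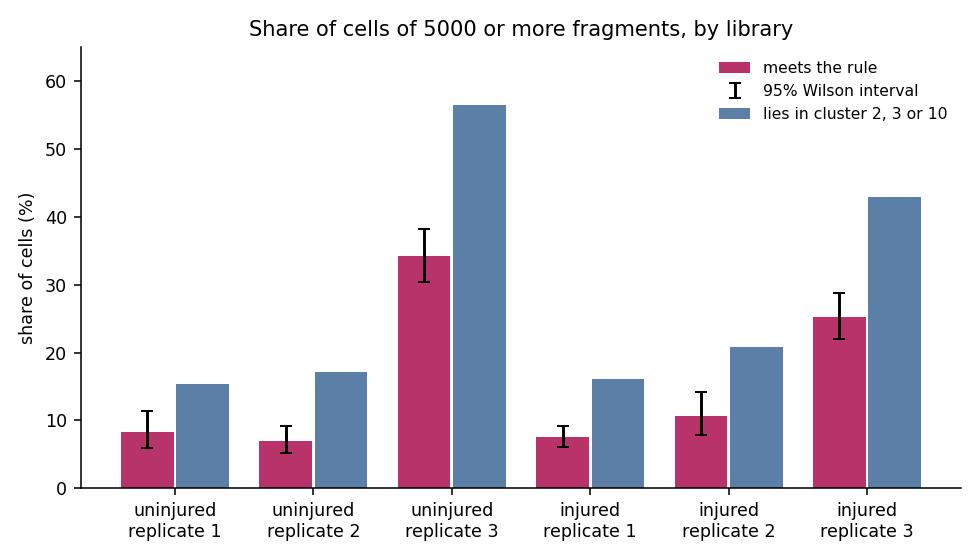
Share of cells of 5000 or more fragments in each library (vertical axis, percent) that meet the rule, with 95% Wilson intervals that cover counting error only, and the share that lies in clusters 2, 3 and 10, which hold most of the chosen cells. Both libraries numbered 3 stand above the other 4 in both measures (34.2% and 25.2% against 6.92% to 10.6% for the rule).

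Depth differed between the chosen cells and the rest. The median was 25698 fragments in chosen cells and 15426 in the others, and 318 cells reached the rate with too few cut sites or genes (median 8909 fragments). When each cell was thinned to 5000 fragments, 63 cells met the rule. Cells chosen at full depth had, once thinned, 5.00 to 6.45 cut sites in the rule windows on average in each library and other basal cells 1.79 to 2.14, an excess that the choice itself fixes. Doublet calls covered 14.3% of chosen cells and 10.6% of other basal cells, with 29.0% of the 31 chosen cells of uninjured replicate 1. The libraries shared 14 cell barcodes, which touched 5 chosen cells.

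The 11 rule genes are given as a description with no test, since they chose the cells. Values are CPM of the class in that library, and ratios are medians over 6 libraries of log2 values with 1 CPM added. F2 (chr2:91625320-91636414, minus strand) encodes prothrombin, the precursor of the clotting protease thrombin. Its window held 31.4, 39.6 and 42.0 CPM in chosen cells of uninjured replicates 1 to 3, and 50.5, 18.6 and 33.6 after injury. In other basal cells it held 6.06, 4.19 and 14.6 CPM before and 5.46, 6.57 and 8.46 after injury, so the classes did not overlap and the median ratio was 4.10-fold. Depp1 (chr6:116650609-116652794) encodes a regulator of autophagy induced by FOXO factors. It had the highest median ratio, 6.30-fold, with 30.8, 42.7 and 28.7 CPM before and 25.0, 20.2 and 24.4 after injury in chosen cells, and 0.977 to 10.9 CPM in other basal cells. Adh7 (chr3:138217760-138233382) encodes an alcohol dehydrogenase that oxidises retinol. It held 35.5 to 66.6 CPM in chosen and 9.18 to 23.5 in other basal cells.

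The secreted defence genes were low in other basal cells. Reg3g (chr6:78466269-78468872) held 15.3 to 39.7 CPM in chosen cells and 2.14 to 9.22 in others, a median ratio of 5.81-fold. Bpifa1 (chr2:154142880-154149219) held 8.88 to 22.9 against 0.391 to 1.93 CPM, 6.01-fold, from 22 to 114 cut sites per library. Tff2 differed 3.14-fold. Among enzymes, proteases and their inhibitors, Prss30, a serine protease, differed 3.87-fold, Serpina3n, a serine protease inhibitor with near-identical neighbouring copies between which reads may be split, 3.84-fold, and Aspa, which cleaves N-acetylaspartate, 3.42-fold. Fam3b, which encodes a secreted cytokine-like protein, differed 2.02-fold, and Adgrg1, an adhesion G protein-coupled receptor, 1.48-fold. Adgrg1 was already open in other basal cells, at 91.8 to 110 CPM against 136 to 220 in chosen cells. Per kb of window, Depp1 and Reg3g were the most open of the 11 in chosen cells, at 6.83 and 6.40 CPM per kb, and Fam3b the least, at 0.68.

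**Figure D2:**
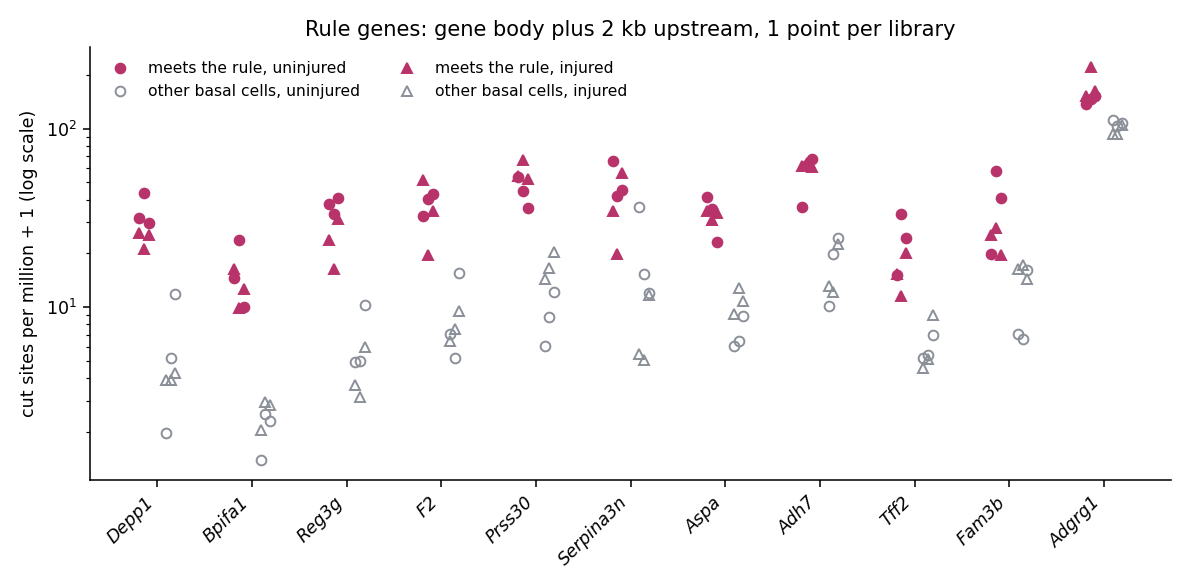
CPM with 1 added (log scale) in the windows of the 11 rule genes, 1 point per library, filled for chosen cells and open for other basal cells, circles before and triangles 24 h after injury. In each library chosen cells lie above other basal cells for all 11 genes, as the rule makes them, and Adgrg1 is high in both classes.

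When cells were chosen by the other 10 genes, the left-out gene, picked with the others for opening in the same cells, was still more open in the chosen cells of all 6 libraries for 9 of the 11 genes, with medians from 1.34-fold for Fam3b to 4.03-fold for Depp1. Bpifa1 (median 3.28-fold) and Adgrg1 (1.10-fold) were higher in 5 of 6. After injury Fam3b was close to level, at 17.8, 18.3 and 15.9 CPM against 16.1, 17.2 and 15.2 in other basal cells. As a description, since these cut sites chose the cells, the 28 open regions in the rule windows included 9 at least 2-fold more open in all 6 libraries, and 5 of these lay at the starts of Depp1, Reg3g, Tff2, Bpifa1 and Prss30.

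For the open regions at Depp1 and Reg3g a stretch of 300 bases just upstream of each gene is printed to show DNA open there (GRCm38, plus strand, 5′ to 3′). Each is the stretch with the most cut sites of chosen cells among those free of annotated untranslated regions and noncoding exons. Stretches over such parts were left out, so these need not be the peak of opening. Capitals mark forkhead letters, TGTTTAC or TGTTTGC or their complements, which return below. The Depp1 stretch (chr6:116650301-116650600) held 282 cut sites of chosen cells and 133 of the more numerous other basal cells, 8.74 against 1.11 CPM, and no such letters. The Reg3g stretch (chr6:78469411-78469710) held 322 and 142 cut sites, 9.98 against 1.18 CPM, and 1 match.
Depp1: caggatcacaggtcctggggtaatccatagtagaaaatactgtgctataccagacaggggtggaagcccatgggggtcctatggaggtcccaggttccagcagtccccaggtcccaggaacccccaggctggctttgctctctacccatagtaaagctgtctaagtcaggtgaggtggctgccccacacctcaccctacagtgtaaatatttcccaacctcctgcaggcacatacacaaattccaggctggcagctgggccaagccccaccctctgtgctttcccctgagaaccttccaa
Reg3g: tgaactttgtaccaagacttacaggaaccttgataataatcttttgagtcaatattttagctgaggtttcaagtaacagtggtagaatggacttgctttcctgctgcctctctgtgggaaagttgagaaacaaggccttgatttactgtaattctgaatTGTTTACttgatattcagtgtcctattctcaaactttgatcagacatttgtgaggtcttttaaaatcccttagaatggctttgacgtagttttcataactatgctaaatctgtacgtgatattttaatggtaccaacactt

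The label airway-like was checked against lists of marker genes and was only partly matched. Across 14322 gene windows at a mean of 10 CPM or more, 13.4% were more open in chosen than in other basal cells in all 6 libraries and 7.37% less open in all 6, and the median log2 ratio was 0.07. Of 14 airway transcription factors, 13 were at that level and 5 of them were higher in 6 of 6 libraries: Foxa1, a pioneer factor of endoderm-derived epithelia, at 91.1 to 116 CPM against 53.3 to 82.2 (1.73-fold), Ehf, an epithelial ETS factor (1.58-fold), Klf5 (1.39-fold), Creb3l1 and Grhl2. Nkx2-1, the lung and thyroid factor, was as open in the other class within the spread (7.21 to 20.8 against 7.23 to 11.5 CPM), and Foxa2 was under the level. Of 26 airway secretory and defence genes, 16 were at the level and 5 were higher in all 6 libraries: Aldh3a1 (1.62-fold), Sftpd, surfactant protein D (1.62-fold), Bpifb1 (1.56-fold), Cxcl17 (1.42-fold) and Cbr2. Scgb1a1, the defining gene of airway club cells, held at most 1.44 CPM in any library of chosen cells. Summed over all genes of a list, the classes did not overlap for airway transcription factors (786 to 949 CPM in chosen against 624 to 748 in other basal cells) or for airway secretory and defence genes (500.1 to 623 against 393 to 477 CPM). Clusters 6 and 11, left out of the comparator, were open at sustentacular and gland genes (3.66 and 3.43 times the mean). They held 1.28 and 1.58 times the mean for airway transcription factors and 1.44 and 1.33 times for airway secretory and defence genes. Clusters 2, 3 and 10 held 1.21 to 1.30 and 1.13 to 1.44 times the mean. Openness at these lists was therefore not particular to the clusters of the chosen cells.

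Of 15 olfactory identity factors 4 were higher and 1 was lower in chosen cells in all 6 libraries. Pax6 held 134 to 186 CPM in chosen and 132 to 169 in other basal cells, and Otx2 and Lhx2 had median log2 ratios of -0.03 and -0.08. Emx2, a homeobox factor, was lower in all 6 libraries (5.20 to 16.2 against 14.7 to 23.6 CPM), while Eya2, Meis1, Meis2 and Sox2 were higher in all 6. Of 14 basal cell genes 2 were higher in all 6 libraries, Itga6 (1.29-fold), an integrin of the basal lamina contact, and Ngfr (1.27-fold), and 1 was lower, near the shares over all windows. Trp63 held 133 to 178 against 134 to 176 CPM, Krt14 had a median log2 ratio of -0.12, and the lower gene was Krt5, which drives the Cre, at 48.9 to 62.5 against 57.3 to 101 CPM. The cells are called here by the genes of the rule.

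Markers of other cell types the sort could hold were no higher in chosen cells. None of 3 immune, 7 stromal, 5 microvillar, 7 neuronal and 4 sustentacular or gland genes at the level was higher in all 6 libraries, and Ncam1, a neural adhesion gene, was lower (22.9 to 46.1 against 49.6 to 92.0 CPM, the latter with the cells of cluster 5). The sums over these 5 lists overlapped between the classes, for immune genes 69.2 to 102 against 79.4 to 116 CPM. Tyrobp, Cd3e and C1qb, defining genes of immune cells, were at 0 in some libraries of chosen cells and reached 0.96, 3.92 and 2.37 CPM at most. Of the ciliated cell list 2 of 12 were higher in 6 of 6, Rfx2 and Tppp3, near the background of 13.4%. Of the retinoid genes, which handle the pathway of Adh7, 4 of 15 were: Aldh1a7 (1.96-fold), Dhrs9 (1.57-fold), Cyp26b1 (1.52-fold) and Aldh1a1, and the sum over the list was 858 to 951 against 751 to 825 CPM. Of proteases, inhibitors and coagulation genes, the surroundings of F2, 5 of 20 were, Serpinb5 (1.68-fold), F2rl1 and F2r, both protease-activated receptors, Tmprss2 and F3, the tissue factor that starts clotting. Of the hillock and squamous list 2 of 7 at the level were, Anxa1 and Lgals3, galectin 3, the latter at 164 to 245 against 70.3 to 151 CPM. The sum over this list overlapped between the classes (439 to 551 against 273 to 537 CPM). So did the sums over the ciliated list (556 to 698 against 512 to 651 CPM) and the protease list (920 to 1040 against 717 to 985 CPM).

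Chosen cells lay together when cells were placed by open regions outside the rule windows. Among the 15 nearest neighbours of a chosen cell 57% were chosen cells, against 7.59% around all cells not chosen and 14.8% of all cells. By library the share was 40.5% to 66.7% around chosen cells and 4.04% to 23.6% around other basal cells, highest around both in uninjured replicate 3 (66.7% and 23.6%), followed by injured replicate 3 (55.9% and 18.3%). Counting only neighbours from other libraries the shares were 53.3% and 6.90%. Most sat in 3 clusters, with 228 of the 373 cells of cluster 2, 191 of 461 of cluster 3 and 83 of 171 of cluster 10. Cluster 10 held 157 cells of uninjured replicate 3 and may be that library rather than a state. Taken over all cells of these 3 clusters, the rate in the rule windows was 408, 416 and 413 CPM in the uninjured and 403, 378 and 426 in the injured libraries, given as a description since the rule used these windows. In the remaining basal clusters it was 154 to 189 in every library.

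**Figure D3:**
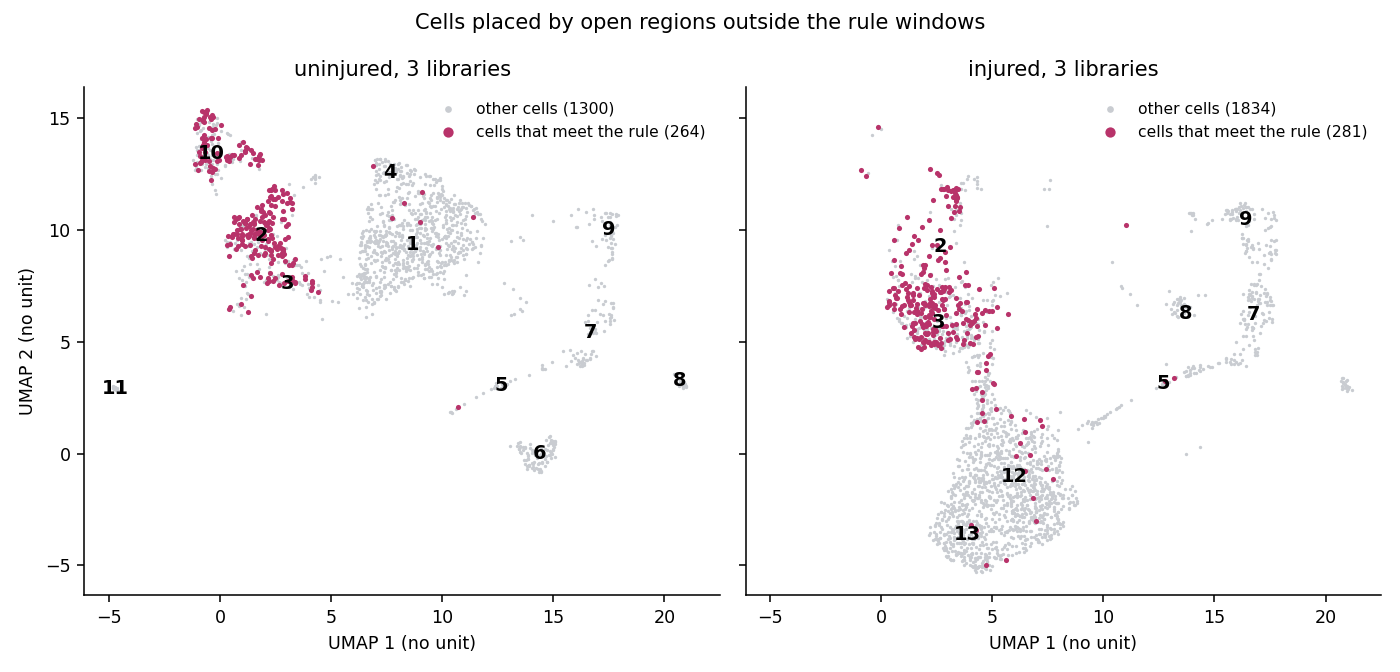
Cells placed by open regions outside the rule windows (UMAP, axes without units), uninjured libraries on the left and injured on the right, with cluster numbers. Chosen cells gather in clusters 2, 3 and 10, while clusters 12 and 13 hold cells of injured libraries only.

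After injury a smaller share of chosen than of other basal cells lay in clusters without uninjured cells. In the injured libraries 11 of 85, 9 of 38 and 11 of 158 chosen cells (12.9%, 23.7% and 6.96%) lay in clusters 12 and 13, which held no uninjured cell. Of the other basal cells 861 of 1018, 226 of 298 and 133 of 303 did (84.6%, 75.8% and 43.9%), so the share was lower in chosen cells in 3 of 3 libraries. The rule bears on this contrast, since clusters 12 and 13 held 173 and 167 CPM in the rule windows, under the mean of 224.7. A like gap stood before injury, when cluster 1 held 6.45%, 2.27% and 1.06% of chosen and 83.5%, 66.3% and 48.2% of other basal cells. The contrast is a description and does not measure the response to injury. Within their own clusters the chosen cells shifted: cluster 2 held 74.2%, 50.0% and 57.1% of them before and 17.6%, 21.1% and 32.9% after injury, and cluster 3 held 16.1%, 40.9% and 1.59% before and 67.1%, 52.6% and 55.7% after. Neither pair of groups overlapped, and both gave the smallest two-sided exact permutation p that the design allows, 0.1. This test was not planned. The clusters were made from open regions of these same uninjured and injured cells, and the 2 shares are parts of 1 total. The p values are therefore a description and no independent test of injury. The shift was not particular to chosen cells. Of the other basal cells, cluster 2 held 17, 34 and 40 before and 8, 16 and 30 after injury. Cluster 3 held 13, 31 and 4 of them before and 97, 31 and 94 after.

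Beyond the rule genes few whole gene windows set the chosen cells apart by a large ratio. In all 6 libraries 1 of 14322 windows was at least 2-fold higher (0.00698%) and 5 at least 2-fold lower (0.0349%). The higher one was Prr18, at 17.5 to 26.5 CPM against 5.66 to 11.8. It averaged 8.05 CPM in other basal cells and passed the level only through the chosen cells, where it was higher. The lower ones were Pdzrn4 (11.8 to 32.3 against 38.8 to 114 CPM), Zfp804a, Cldn9, a tight junction claudin, St18, a zinc finger factor, and Zfp366. Zfp804a, Cldn9 and Zfp366 averaged 4.93, 4.82 and 7.84 CPM in chosen cells and passed the level only through other basal cells. At a minimum mean of 20 CPM 0 windows were higher and 2 lower. With the clusters low in basal genes left out of the comparator, 1 window was higher and 1 lower, and without doublets 0 and 3.

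At a lower ratio of 1.5-fold, 22 windows (0.154%) were higher and 60 (0.419%) lower in every library, a ratio chosen after seeing the values. The level is the mean of both classes, so a window could pass through the class where it is high. Prr18, Serpinb13 and B3galt2 did so, with means of 8.05, 5.18 and 7.87 CPM in other basal cells. Kcnj1, a potassium channel, had the highest median log2 ratio of the 22, 1.41, followed by Prr18 (1.39) and Erich3 (1.24). The next were Serpinb13, a protease inhibitor of squamous epithelia (1.21), B3galt2 (1.2), Cd36, a fatty acid scavenger receptor (1.19), Arhgef38 (1.17), Tbx1, a T-box factor (1.12), Krt39 (1.10) and Bmx (1.08). Among the 60 lower windows Pdzrn4 (-1.74) led, followed by Grik1, a glutamate receptor subunit (-1.69), Zfp804a (-1.69), Cldn9 (-1.67), St18 (-1.61), Cntn3, a neural contactin (-1.58), Vat1l (-1.43), Prkg2 (-1.43), Nkain2 (-1.39) and Cnbd1 (-1.38). Grik2 (-1.29), Dcc (-1.22), Reln (-1.22) and Ncam1 (-1.18), also known from neurons, were among the 60. The comparator includes the 86 cells of cluster 5, which was above the mean in neuronal genes, and their part in these ratios was not tested at this fold. At 2-fold, 5 windows were lower, and 1 was when clusters 5 and 8 were left out of the comparator, a choice made after seeing the data.

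Single open regions were compared at 2-fold and 4-fold. None of 30430 regions at 5 CPM or more in the mean of both classes was 4-fold apart in every library (0.0%), while 268 were at least 2-fold higher (0.881%) and 12 at least 2-fold lower (0.0394%). The 2-fold regions were taken after that count was seen, and no test is given, because they compare the classes as the rule. With chosen cells inside and other basal cells outside clusters 2, 3 and 10, a choice made after seeing the data, 223 regions were 4-fold higher and 6 lower in every library. The clusters were built from open regions outside the rule windows, so this count partly restates the clustering. Of the 268 higher regions, 210 were under 5 CPM in other basal cells and passed the level only through the chosen cells, where they had to be high. The counts, places and letters given for the 268 are therefore descriptions of regions picked for opening in chosen cells. The 268 higher regions were nearest to 251 different genes and lay far from starts. Of them 1.49% covered a gene start and 56.7% were intergenic, against 36.1% and 28.1% of all regions at this level, and the median distance to a start was 45898 bp against 9709 bp.

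Some of the regions with the highest median ratios are described, chosen after their values were seen. A region in an intron of Lgr6, a receptor for R-spondins that marks epithelial stem cells, had the highest median ratio (chr1:135076001-135078000, log2 2.86). It held 22.5, 14.6 and 20.7 CPM in chosen cells before and 15.4, 19.0 and 17.2 after injury, against 1.07 to 6.03 in other basal cells. Regions in an intron of Arhgef38 and near Rnd3 and Pttg1 had 2.6, 2.58 and 2.58, after the region near Gmnc given below. A region in an intron of Rspo3, an R-spondin ligand (chr10:29457001-29458500, log2 2.54), held 15 to 33.1 against 2.10 to 6.39 CPM. A region 168152 bp from the start of Gmnc, a regulator of multiciliated cells (chr16:26822001-26823500, log2 2.61), held 25.4, 28.1 and 23.8 CPM before and 9.61, 11.7 and 12.3 after injury, against 0.560 to 8.57. Places 31610 and 10610 bp upstream of Sftpb, which encodes surfactant protein B, had log2 ratios of 2.55 and 2.44, and 3 regions upstream of Foxq1, a forkhead factor, 2.37, 1.98 and 1.76. The other basal cells of uninjured replicate 3 had the highest value of their class in the Lgr6, Rspo3, Gmnc and first Sftpb regions (6.03, 6.39, 8.57 and 6.46 CPM). In that library 44.3% of other basal cells lay in clusters 2, 3 and 10.

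The stretch of 300 bases with the most cut sites of chosen cells is printed for 4 of these regions, to show distal DNA open in these cells with the forkhead letters in capitals (GRCm38, plus strand, 5′ to 3′). Stretches over annotated untranslated regions or noncoding exons were again left out. The Lgr6 stretch (chr1:135076431-135076730) held 288 cut sites of chosen and 134 of other basal cells, 8.93 against 1.12 CPM, and 1 match. The Gmnc stretch (chr16:26822471-26822770) held 262 and 110 cut sites, the Sftpb stretch (chr6:72272201-72272500) 252 and 100, and the Rspo3 stretch (chr10:29457671-29457970) 421 and 260. They hold 2, 1 and 2 matches.
Lgr6: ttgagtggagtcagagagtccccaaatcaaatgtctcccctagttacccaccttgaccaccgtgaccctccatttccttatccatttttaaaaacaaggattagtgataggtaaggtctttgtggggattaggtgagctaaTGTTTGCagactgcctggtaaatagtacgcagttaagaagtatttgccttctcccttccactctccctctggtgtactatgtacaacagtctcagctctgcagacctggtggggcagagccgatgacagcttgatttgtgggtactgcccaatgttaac
Gmnc: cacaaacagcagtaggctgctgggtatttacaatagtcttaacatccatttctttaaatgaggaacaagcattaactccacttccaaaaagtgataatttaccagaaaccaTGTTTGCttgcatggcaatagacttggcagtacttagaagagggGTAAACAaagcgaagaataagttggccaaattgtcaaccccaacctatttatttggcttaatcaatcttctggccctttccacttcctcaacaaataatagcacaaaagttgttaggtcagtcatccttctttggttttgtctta
Sftpb: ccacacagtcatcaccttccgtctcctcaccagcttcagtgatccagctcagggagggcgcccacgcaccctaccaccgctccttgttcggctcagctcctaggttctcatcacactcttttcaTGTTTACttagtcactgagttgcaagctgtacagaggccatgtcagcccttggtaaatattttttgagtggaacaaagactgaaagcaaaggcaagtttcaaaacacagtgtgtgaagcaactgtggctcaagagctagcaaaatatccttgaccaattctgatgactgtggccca
Rspo3: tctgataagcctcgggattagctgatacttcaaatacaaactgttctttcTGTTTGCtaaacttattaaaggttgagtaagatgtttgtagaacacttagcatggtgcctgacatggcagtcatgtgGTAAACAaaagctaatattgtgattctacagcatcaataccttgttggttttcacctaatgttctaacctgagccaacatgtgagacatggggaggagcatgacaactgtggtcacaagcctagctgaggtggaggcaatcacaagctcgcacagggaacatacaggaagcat

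Forkhead letters were common in the higher regions. For each region the 500 bp tile with the most cut sites was scanned, reading either strand. Either TGTTTAC or TGTTTGC was present in 141 of 268 higher regions (52.6%) and in 16.7% of all 30430 regions. The C/EBP letters TTGCNNAA were present in 36.6% against 17.8%, the SOX letters CATTGTT in 15.7% against 6.44% and the AP-1 letters TGANTCA in 32.1% against 24.9%. The higher regions were poorer in G and C, with a median of 43.9% against 52.8%. Among regions away from starts with 40 to 48% GC, either forkhead form was present in 70 of 148 higher regions (47.3%) and 1956 of 7322 in all (26.7%), and C/EBP in 39.9% against 25.8%. SOX letters were then present in 13.5% against 11.1%, while AP-1 (31.8% against 40.5%) and TEAD letters GGAATG (21.6% against 31.0%) were less common. ETS letters AGGAAGT (23.6% against 16.8%) and RUNX letters TGTGGTT (21.6% against 16.5%) were more common. Among the 58 higher regions that reached 5 CPM in other basal cells too, either forkhead form was present in 41.4%, C/EBP in 31.0% and SOX letters in 24.1%, against 15.2%, 16.9% and 6.05% of the 28031 regions at that level there, without a limit on GC, a set chosen after seeing the data. AP-1 letters were more common in that set, at 36.2% against 24.3%. These shares describe the letters and carry no test.

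**Figure D4:**
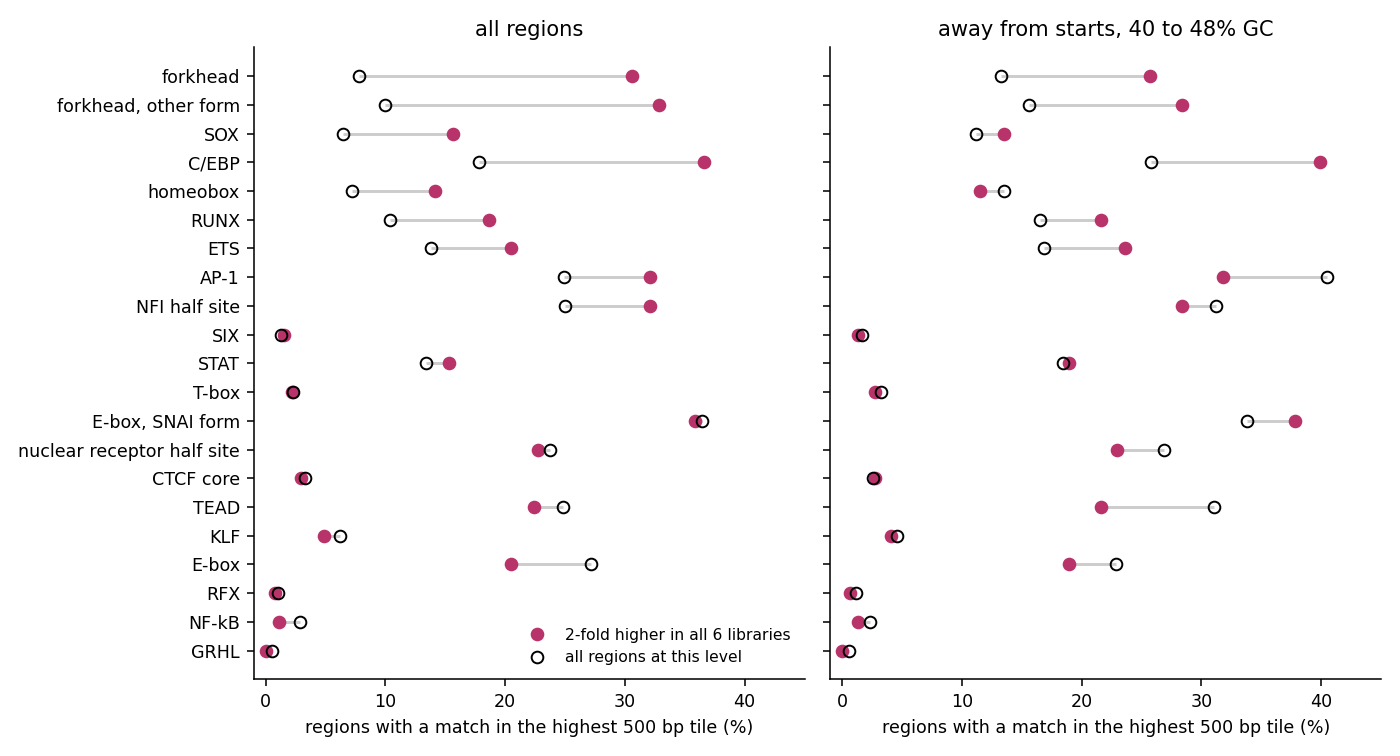
Share of regions (horizontal axis, percent) whose highest 500 bp tile holds the letters named on the left, for the 268 regions 2-fold higher in chosen cells in all 6 libraries (filled) and for all regions at that level (open), over all regions and within 40 to 48% GC away from starts. Both forkhead forms and C/EBP stay apart within the GC range (for either forkhead form 47.3% against 26.7%), while AP-1 changes sides.

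The forkhead genes themselves were examined as a family. Of 30 at a mean of 10 CPM or more, 9 were higher in chosen cells in all 6 libraries and none was lower in all 6, beside 13.4% higher and 7.37% lower over all windows, with a median log2 ratio of 0.14 beside 0.07. The leading ones were Foxc2 (1.07), Foxa1 (0.79), Foxk1 (0.66) and Foxe1 (0.57). Foxc2 and Foxe1 averaged 9.29 and 9.96 CPM in other basal cells and passed the level only through the chosen cells, where they were higher.

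Chromatin change 24 h after injury was tested within the chosen cells with edgeR's quasi-likelihood test on cut sites summed per library, with Benjamini-Hochberg adjustment over all windows tested. In such sums a change in more cells and a larger change per cell cannot be told apart. The rule was applied to uninjured and injured cells alike, so a cell whose rule windows changed with injury could enter or leave the class. In other basal cells 2 of the 11 rule genes rose after injury, beside 9.91% of all windows. The tests therefore compare separately chosen sets of cells. So do the share of chosen cells given above and the difference in change tested below. Of 16444 gene windows, 21 changed (0.128%), 15 rising and 6 falling, and 1508 had an unadjusted p under 0.05. DESeq2 called 53. No gene of the 13 lists beside the rule genes was called, which at 0.128% of all windows is no result about the lists. The count fell to 7 without uninjured replicate 1, 4 without injured replicate 2 and 2 without injured replicate 1, rose to 46 without uninjured replicate 3, and was 8 without cells called as doublets.

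Fgd3, a guanine nucleotide exchange factor, rose most firmly. Its window (chr13:49261554-49320311) held 37.9, 32.3 and 41.5 CPM before and 72.8, 98.5 and 84.5 after injury, which gave a log2 difference of 1.22 with an SE of 0.16 (edgeR adjusted p = 0.000743). The predicted gene Gm45521 (chr14:7957288-7960636) rose from 8.28, 4.16 and 6.45 to 21.1, 27.9 and 26.1 CPM (log2 2.05 ± 0.30, edgeR adjusted p = 0.00198). These 2 genes kept their calls without any 1 library. Mamdc2 (chr19:23302609-23448442) rose from 33.1, 36.4 and 32.6 to 76.9, 63.8 and 60.6 CPM (log2 1.05 ± 0.17, edgeR adjusted p = 0.00539), and Rtn2, a reticulon of the endoplasmic reticulum, fell from 81.0, 79.6 and 89.1 to 35.1, 49.7 and 44.0 CPM (log2 -0.91 ± 0.16, edgeR adjusted p = 0.0143). Both lost the call without injured replicate 1 (edgeR adjusted p = 0.14 and 0.193), and the Rtn2 change was absent in the 2 kb around its start (log2 0.10).

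The other 9 named changes were less firm. None passed the threshold once uninjured replicate 1 was left out (edgeR adjusted p 0.0937 to 0.184), nor without injured replicate 1 (0.14 to 0.346) or without injured replicate 2 (0.0851 to 0.24). Nckap1l, Ngef, Neu2, Irgm1 and Stat5a were also not called in a fit with the replicate number as a block. Nckap1l, part of the actin-regulating WAVE complex of blood cells, rose by a log2 change of 1.85 (edgeR adjusted p = 0.0325), from 3.55, 4.16 and 5.72 to 20.7, 16.2 and 13.6 CPM. Ngef and Neu2, whose windows overlap and share cut sites, both rose by 0.98 (edgeR adjusted p = 0.0195). Kcnk5, a potassium channel, rose by 0.97 and Plb1, a phospholipase, by 0.91. Irgm1, an interferon-induced GTPase, fell from 36.7, 36.4 and 38 to 15.9, 19.8 and 16.2 CPM (log2 -1.06, edgeR adjusted p = 0.0325). Plscr2 (-1.22), Nfe2l3, a CNC-bZIP transcription factor (-0.92), and Stat5a (-0.80) fell too. Cyp4a32 (-2.65) and Gm14137 (1.84), which averaged under 10 CPM in chosen cells, were called as well (edgeR adjusted p = 0.0439 and 0.0464). In other basal cells Irgm1 (-1.77), Stat5a (-0.84) and Rtn2 (-0.52) fell too (edgeR adjusted p from 0.000175 to 0.0368). Plb1 (1.03), Neu2 (1.33), Ngef (1.43) and Kcnk5 (2.01) rose in both classes, and Fgd3 rose there from 42.0, 52.0 and 42.8 to 95.5, 99.1 and 102 CPM.

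Of 45621 open regions tested, 96 changed in chosen cells (0.21%), 91 rising and 5 falling, and 4809 had an unadjusted p under 0.05. The count was 47 without uninjured replicate 1, 10 without injured replicate 1 and 3 without injured replicate 2. A region 117671 bp upstream of St3gal1, a sialyltransferase (chr15:67294501-67296500), rose from 0, 0.520 and 0.490 to 9.61, 14.9 and 6.86 CPM (edgeR adjusted p = 0.00578). One 12120 bp upstream of Il4ra, an interleukin receptor chain (chr7:125539001-125540000), rose by log2 3.71, and one in an intron of Dock1 (chr7:134773501-134775000) by 3.13. Among the falling ones were a region at Gclc, an enzyme of glutathione synthesis (chr9:77774501-77803000, -1.19), 1 at the start of Irf1, an interferon regulatory factor (chr11:53768501-53787000, -0.89), and 1 at Runx1 (chr16:92664501-92699500, -0.73). The Il4ra (3.52), Dock1 (4.52), Gclc (-0.74), Irf1 (-1.59) and Runx1 (-0.57) regions were also called in other basal cells (edgeR adjusted p 2.17e-05 to 0.00795). The St3gal1 region was not called there (1.04, edgeR adjusted p = 0.118). In chosen cells that region rested on 0, 1 and 6 cut sites before and 40, 37 and 67 after injury.

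In other basal cells 3693 of 19329 windows (19.1%) changed after injury. They were summed over 282 to 1018 cells a library and chosen cells over 31 to 189, so the counts are not compared. The difference in change was tested directly, as an interaction in 1 model with both classes. It was called for 155 of 19770 windows (0.784%), with 107 changing more negatively in chosen cells (0.541%) and 48 more positively (0.243%). The count was 55 without uninjured replicate 2, 31 without injured replicate 1, 69 without injured replicate 2, 244 without uninjured replicate 3 and 16 without doublet calls. With classes from cells thinned to 5000 fragments it was 1. The chosen class there was not the 63 thinned cells that met the rule. It held 67, 110 and 194 cells in the uninjured libraries and 198, 65 and 173 in the injured ones.

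The hillock and squamous list, genes of stratified epithelium, held the most genes with a called difference among the lists. For 5 of 18 the difference in change was called, all more negative in chosen cells, beside 0.541% of all windows. In other basal cells 11 of 18 rose, beside 9.91% of all windows, with a median log2 change of 1.09. In chosen cells none of the 12 tested was called, beside 0.128% of all windows called, and their median log2 change was 0.14. Only these 12 of the 18 passed the filter in chosen cells, and the sums of the classes hold unlike numbers of cells. Neither the counts nor the medians of the 2 classes are therefore compared. Krt6a, a keratin of stressed epithelium (chr15:101689910-101694307), went from 1.46, 1.02 and 3.70 to 25.0, 23.4 and 19.6 CPM in other basal cells. In chosen cells it was 2.37, 7.29 and 12 before and 7.69, 10.9 and 8.60 after injury, so these groups overlapped (difference of log2 changes -3.26 ± 0.45, edgeR adjusted p = 4.53e-05). In chosen cells the Krt6a values rest on 4, 14 and 147 cut sites before and 32, 27 and 84 after injury. Krt6b is a near-identical copy of Krt6a, so reads may be split between them. Krt16, its partner keratin, went from 1.76, 3.07 and 2.47 to 34.8, 22.5 and 22.2 CPM in other basal cells and from 3.55, 1.04 and 6.37 to 6.73, 6.87 and 3.07 in chosen cells (-3.17 ± 0.52, edgeR adjusted p = 0.00207). Without uninjured replicate 3 the Krt16 difference was -2.29 with an edgeR adjusted p of 0.149.

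Dmkn (-2.37), Ecm1 (-1.61) and Lgals3 (-0.83) were the other 3, with edgeR adjusted p of 0.0341, 0.0264 and 0.0244. Lgals3 started high in chosen cells, at 189 to 245 CPM before and 164 to 198 after injury, while in other basal cells it rose from 70.3, 76.1 and 114 to 123, 103 and 151. Among proteases and inhibitors, Plaur, the urokinase receptor, and Serpinb2, an inhibitor of urokinase, differed by -1.20 and -1.71 (edgeR adjusted p = 0.046 and 0.0427). Dsg3, a desmosomal cadherin, differed by -1.79 and Icam1, an adhesion molecule found on resting horizontal basal cells, by 0.70 (edgeR adjusted p = 0.0149 and 0.0189). Icam1 fell from 149, 113 and 107 to 43.7, 40.9 and 55.7 CPM in other basal cells, and stood at 186, 99.4 and 111 before and 70.9, 84.4 and 97.7 after injury in chosen cells. All of these 7 lost the call without uninjured replicate 2 (edgeR adjusted p 0.063 to 0.228) and without injured replicate 1 (0.0502 to 0.395).

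The smallest p values belonged to genes that opened in other basal cells and less or not in chosen cells. Cubn, an endocytic receptor (chr2:13276338-13491813), rose in both classes, from 33.1, 47.9 and 48.7 to 88.9, 82.0 and 64.5 CPM in chosen cells and from 25.6, 39.6 and 29.6 to 165, 182 and 131 in others (difference -1.59 ± 0.17, edgeR adjusted p = 5.64e-07). In the window of 1 kb either side of its start the Cubn difference was 1.03 (edgeR adjusted p = 0.955). Gm14137 differed by -3.29 and Myo3b, a class III myosin, by -1.28 (edgeR adjusted p = 6.62e-06 and 3.19e-05). Mbp, known from myelin, was more open in chosen cells before injury, at 227, 262 and 294 against 97.1, 108 and 164 CPM, and differed by -0.78 (edgeR adjusted p = 0.00218). In the opposite direction, Ccdc153 (1.27), Fam118a (0.90), Dlk2, a non-canonical Notch ligand (1.12), Dapl1 (1.00) and Map1b (0.73) fell in other basal cells and did not pass the test in chosen cells. Around the start the Fam118a difference was -0.666 (edgeR adjusted p = 0.99). Dlk2 stood at 26, 33.3 and 35.0 before and 39.4, 48.5 and 37.1 CPM after injury in chosen cells, against 48.6, 40.6 and 41.2 and then 23.1, 24.1 and 24.9 in others. Dapl1 lost the call without uninjured replicate 2 or injured replicate 1 (edgeR adjusted p = 0.0519 and 0.0868), and Map1b without injured replicate 1 (0.0633).

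**Figure D5:**
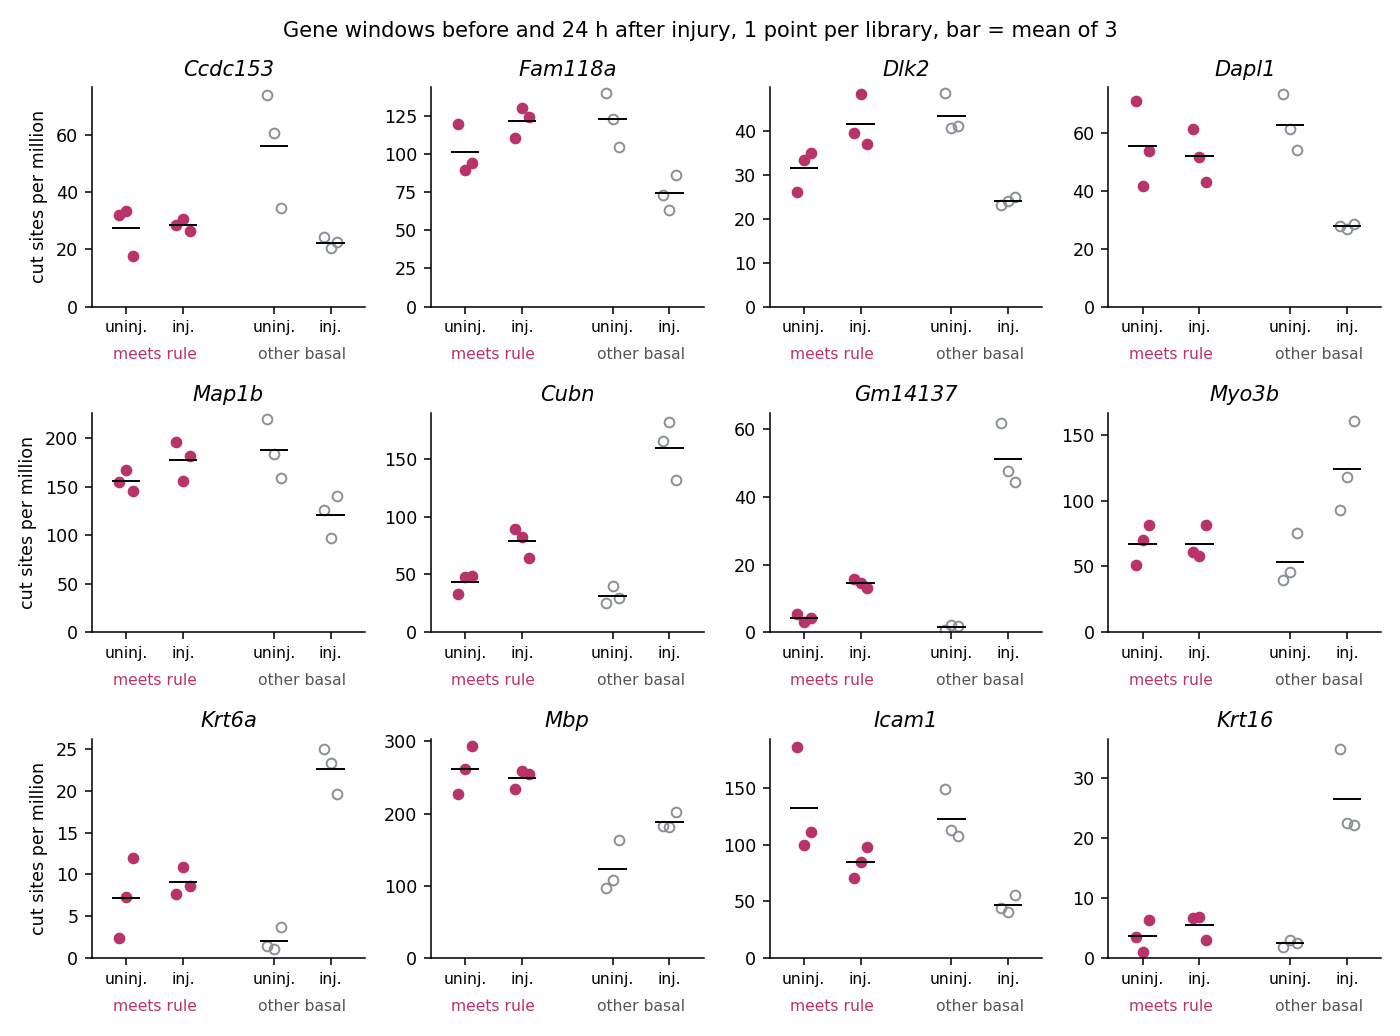
Values in CPM (vertical axis, own scale per gene) before and 24 h after injury in chosen cells (filled) and other basal cells (open), 1 point per library with a bar at the mean of 3, for the 10 windows with the smallest p of the difference, 5 in each direction, and for Icam1 and Krt16. Krt6a reaches 19.6 to 25.0 in injured other basal cells and 7.69 to 10.9 in injured chosen cells.

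Over open regions the difference was called for 1408 of 126125 (1.12%), 873 more negative and 535 more positive in chosen cells. The direction of this split turned on uninjured replicate 3, without which 1700 of 2506 were more positive. It also turned on injured replicate 1 and on doublets: without them 204 of 388 and 217 of 391 were more positive.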

How the data were processed

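Fragment files of the 6 libraries were used. Per the submitters' processing notes the reads were handled with Cell Ranger 2.0.0 on mm10, while the headers of the deposited matrices, which were not used, name software version 1.2.0, and the deposited counts are read pairs per fragment. Both ends of each fragment were counted as cut sites, in 21911 GENCODE gene windows (body plus 2 kb upstream, GRCm38) and in open regions built from 500 bp tiles at 5 times the median tile. Libraries held 8100227 to 23937953 fragments in all and 359 to 1130 cells of 5000 or more fragments. Cells were clustered without the rule windows (30 components, 15 neighbours, resolution 0.5; scanpy 1.11.5, Python 3.11.15). The 445 cells in clusters open at markers of other cell types were left out of the comparator. Doublets were called and kept.

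Cut sites were summed per library and class, since cells are not replicates, and tested with edgeR 4.0.16 (TMM, filterByExpr, quasi-likelihood, threshold 0.05; R 4.3.3), with DESeq2 1.42.0 as an alternative.

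The members and lists were chosen with earlier results of these data known. Named genes were the 11 rule genes, the largest windows and regions apart, the up to 8 windows and 3 regions with the largest injury change in each direction among those at a mean of 10 CPM or more (regions 5) whose groups did not overlap, the 5 windows with the smallest p of the difference in each direction, and genes of the lists. Genes and regions 1.5-fold or 2-fold apart beyond this rule, and the forkhead genes, were named after their values were seen. Sequences come from the GRCm38 reference.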

Additional observations from a re-analysis of the deposited data

Results flagged for a closer look

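Of the 155 windows called, 22 belong to genes that the rule for named genes or a list holds, and 16 windows in all were called without doublets. For these 22 genes the change after injury in chosen cells differed from the change in other basal cells by the interaction test (edgeR quasi-likelihood, Benjamini-Hochberg adjusted over all windows). The values are log2 differences of the change, chosen minus other basal cells. The differences of Krt6a (-3.26), Krt16 (-3.17), Dmkn (-2.37), Ecm1 (-1.61) and Lgals3 (-0.83) belong to the hillock and squamous list. The protease list holds Serpinb2 (-1.71) and Plaur (-1.20), and the basal list Dsg3 (-1.79) and Icam1 (0.70). Gm14137 (-3.29), Cubn (-1.59), Myo3b (-1.28), Plscr2 (-1.07), Kcnk5 (-1.05), Mbp (-0.78) and Nfe2l3 (-0.64) were also more negative in chosen cells. Gm45521 (1.69), Ccdc153 (1.27), Dlk2 (1.12), Dapl1 (1.00), Fam118a (0.90) and Map1b (0.73) were more positive. For Gm45521 the chosen cells rose while other basal cells held 23.1, 22.3 and 12.2 CPM before and 20.5, 16.5 and 20.8 after injury. For Plscr2 and Nfe2l3 the chosen cells fell, and the change in other basal cells did not pass the test (edgeR adjusted p = 0.401 and 0.253).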

How the results depend on the processing

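The share of neighbours that were chosen cells stayed between 51.9% and 62.1% in every alternative run. The change in the share of cells reversed from -2.02 points to 6.87 without uninjured replicate 3, 1.44 without injured replicate 1 and 1.47 without both libraries numbered 3, with -7.41 to 6.87 when 1 library was left out. The counts of calls moved widely, and the cause was not tested. The 4 counts are given in the order windows changed in chosen cells (21), regions changed (96), windows with a differing change (155) and regions with a differing change (1408). Without doublets they were 8, 28, 16 and 391, with no filter 120, 301, 376 and 835, at a rate threshold of 2 times the mean 7, 41, 38 and 297, with 1 library left out 2 to 46, 3 to 128, 31 to 244 and 388 to 2506. With chosen cells inside and the comparator outside clusters 2, 3 and 10 they were 5, 14, 939 and 6250, and with classes from thinned cells 122, 1470, 1 and 444. DESeq2 gave 53, 280 and 166 for the first 3. Windows of 1 kb either side of the start gave 2 changed and 63 differing, regions at 10 times the median tile 153 changed, the absence of both libraries numbered 3 gave 11 changed regions, and all other cells as comparator 8 and 331 differing. RLE size factors gave 27, 91, 172 and 1762.

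The 6 windows 2-fold apart became 3 without doublets, 10 at the threshold of 2 times the mean, 27 against all other cells, 2 without comparator clusters low in basal genes, 30 by clusters, 2 with a pseudocount of 5 CPM, 2 at a minimum of 20 CPM, 2 around starts, 82 at 1.5-fold and 8 to 11 with 1 library left out. The 0 regions 4-fold apart became 1 against all other cells, 229 by clusters, 3 with a pseudocount of 0.5 CPM, 280 at 2-fold and 0 to 5 with 1 library left out. Around starts Rtn2 reversed to 0.0975, Fam118a to -0.666 and the Cubn difference to 1.03. For the named genes, 335 values in alternatives kept direction and call, 173 kept direction and lost the call and 3 reversed. The settings differed: around starts 8 kept the call, 17 lost it and 3 reversed, and in classes from thinned cells 10 kept and 21 lost it. These counts pool injury changes with differences of the change. With thinned classes 1 window in all had a called difference, so at most 1 of the named differences kept its call. At 2 times the mean 16 kept and 15 lost it, while 31 kept it with no filter and 30 each with RLE size factors and DESeq2. The fit with the replicate number as a block gave 15 windows and 85 regions, and 5 of the 13 named injury changes were not called in it (Nckap1l, Ngef, Neu2, Irgm1 and Stat5a, adjusted p 0.0540 to 0.0857). The correlations of same-numbered samples were 0.0285, 0.110 and 0.122, and each sample correlated best with its own number, a hint from the data and not from the design. No member lay in a cluster of another cell type, so leaving out such members changed nothing. The alternatives by clusters, from thinned cells, without both libraries numbered 3, without comparator clusters low in basal genes and at lower folds were chosen after seeing the data. Chosen cells numbered 31 to 189 a library.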
